A study of Mus musculus with 12 samples.

Results

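The level of 10 genes that mark fat cells was examined in mouse skeletal muscle. The genes were Adipoq, Fabp4, Plin1, Cfd, Lep, Retn, Cidec, Pparg, Scd1 and Ucp1. They were chosen by symbol for what they are known to do, out of 23923 genes in the files, and all 10 had a row in every library. Earlier results of these data were known when they were chosen. RNA of the tibialis anterior, a fast-twitch muscle of the lower hind limb, was sequenced from 12 mice of the mixed strain C57BL6/J;129S1/SvImJ at 6 weeks of age, with 1 library per mouse. The 6 controls were Myf6 cre/+; Smyd1 flox/+ and the 6 Smyd1 CKO (conditional knockout) mice were Myf6 cre/+; Smyd1 flox/-. Both groups therefore carried the Cre driver and 1 floxed allele, and they differed in whether the other allele was wild type or null. By the paper's methods, mice of both groups also carried a Rosa26 YFP reporter allele. The paper states that its experiments after the comparison of the sexes used male tissue only. Cre was expressed from the Myf6 gene, which is active in myofibers, so recombination was directed at muscle cells and not at fat cells. The null allele, in contrast, was inherited through the germ line and was present in every cell of the CKO mice. The question was whether the muscle samples differed in fat cell RNA, between mice or between the groups.

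Adipocytes store triglyceride in a lipid droplet coated by perilipins and release fatty acids from it by lipolysis. They also secrete hormones, the adipokines, among them adiponectin, leptin, resistin and adipsin. Their identity is set by the nuclear receptor PPARγ together with C/EBP factors. Skeletal muscle holds few adipocytes, which lie between the fibers and around vessels and nerves, and a dissected muscle can also carry fat from its surface. In bulk RNA, fewer fat cells and less RNA per fat cell cannot be told apart.

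Of the 10 members, 4 encode adipokines: Adipoq, Cfd, Retn and Lep. The 250 bases before the annotated start of each gene are given below from RefSeq (GRCm38.p6), 5′ to 3′ on the strand of the gene, which is the plus strand for these 4. They are shown because most differences described below concern these genes. Capitals mark a match to any of 4 short motifs searched on both strands, none of which overlapped another.
Adipoq, chr16:23146286-23146535: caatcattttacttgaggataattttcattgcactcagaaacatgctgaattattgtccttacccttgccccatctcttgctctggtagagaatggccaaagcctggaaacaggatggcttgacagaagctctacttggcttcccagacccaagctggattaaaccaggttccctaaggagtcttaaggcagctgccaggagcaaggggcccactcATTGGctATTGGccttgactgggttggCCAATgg
Cfd, chr10:79890603-79890852: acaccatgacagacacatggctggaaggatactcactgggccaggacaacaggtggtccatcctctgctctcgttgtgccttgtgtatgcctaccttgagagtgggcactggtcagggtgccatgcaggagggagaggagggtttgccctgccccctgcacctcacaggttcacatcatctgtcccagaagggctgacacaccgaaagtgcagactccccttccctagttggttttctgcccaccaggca
Retn, chr8:3655520-3655769: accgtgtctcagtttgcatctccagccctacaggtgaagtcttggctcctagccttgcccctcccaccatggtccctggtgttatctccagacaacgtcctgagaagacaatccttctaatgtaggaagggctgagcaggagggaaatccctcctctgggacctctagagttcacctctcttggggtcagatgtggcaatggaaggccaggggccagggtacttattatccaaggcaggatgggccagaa
Lep, chr6:29059971-29060220: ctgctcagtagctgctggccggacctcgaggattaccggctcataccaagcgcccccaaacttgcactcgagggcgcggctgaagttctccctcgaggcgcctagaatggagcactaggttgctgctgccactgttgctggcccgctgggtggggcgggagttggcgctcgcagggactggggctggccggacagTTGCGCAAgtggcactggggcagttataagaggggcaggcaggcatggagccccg
The motifs were AGGTCA, the half-site bound by nuclear receptors such as PPARγ, TTGCGCAA, the C/EBP palindrome, CCAAT, the CCAAT box, and TATAAA, the TATA box. The Adipoq promoter held 3 CCAAT matches, 2 of them on the opposite strand, and 33.8% of the 32851 promoters of this length held at least 1. The Lep promoter held the C/EBP palindrome 55 to 48 bases before its start, and 54 of the 32851 promoters (0.164%) did. The Cfd and Retn promoters held none of the 4 motifs in this window. Of the 8 members with a promoter sequence, Pparg and Ucp1 held an AGGTCA match, as did 14.02% of all promoters. Sequences for Fabp4 and Scd1 were not used here.

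The labels were checked first on the targeted gene. Smyd1, which encodes a lysine methyltransferase of striated muscle, ranged from 32.9 to 47.1 FPKM in the controls and from 27.8 to 39.9 FPKM in the CKOs (means 37.4 ± 5.64 and 34.1 ± 4.36, SD, n = 6 each). The log2 difference was -0.13 ± 0.12 (SE, limma adjusted P = 0.545), and the groups overlapped. FPKM, the number of fragments scaled to transcript length and to library size, is one value for a whole gene, and which exon the flox allele removes is not given in the sources used here. The total Smyd1 level therefore did not check the labels, and control and CKO below mean the libraries so labelled. At the protein level, the paper's western blots detected no SMYD1 in the tibialis anterior of CKO mice. The tissue label was checked on the myofiber genes Tnnt3, Myh4, Acta1, Ckm and Mb, which summed to between 15456 and 22289 FPKM in the 12 libraries. The fit covered 12695 genes, of which 2300 (18.1%) stood higher and 224 (1.76%) stood lower in CKO muscle at an unadjusted P below 0.05. At an adjusted P below 0.05, 257 (2.02%) were higher and 34 (0.268%) lower. The median log2 difference of all tested genes was 0.18, above 0, and after median-ratio scaling of the libraries it was 0.01. With that scaling 841 genes (6.62%) were higher and 944 (7.44%) lower at an unadjusted P below 0.05, and the members are therefore given on both scales.

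The 10 members did not form one class by level. Fabp4 was abundant, with a mean of 142 FPKM over the 12 libraries, Scd1 averaged 4.43 FPKM, Cfd 1.56 FPKM and Pparg 1.004 FPKM. The others averaged below 1 FPKM: Adipoq 0.539, Cidec 0.261, Retn 0.254, Plin1 0.101, Lep 0.0337 and Ucp1 0.0121 FPKM. FPKM are per length, so these levels can be set side by side. A gene was tested if 6 or more of the 12 libraries had 0.1 FPKM or more, and 7 of the 10 members passed. Plin1 reached 0.1 FPKM in 5 libraries, and Lep and Ucp1 in 1 library each. Retn passed with all 6 CKO libraries and 2 control libraries, so it entered the test through the group in which it was high.

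The low FPKM values fell on steps, as they do where whole fragments were counted. In genes with 1 annotated transcript the lowest step gave the worth of 1 fragment in each library, from which between 10600000 (CKO 5) and 19100000 (CKO 1) fragments per library were estimated. The median was 12900000 in the controls and 13400000 in the CKOs. Divided by this unit, and with the lowest value above 0 set to the smallest number of fragments from 1 to 4 that served, the values of Adipoq, Plin1, Cfd, Lep, Retn and Cidec in all 12 libraries lay within 0.1 of whole numbers, and Ucp1 did so with its annotated length. Lep rested on 4 fragments over all controls and 16 over all CKOs, Retn on 2 and 24, Plin1 on 9 and 21, Cidec on 26 and 48, Adipoq on 34 and 83, and Cfd on 58 and 193. These fragment numbers are estimates, and the intervals built on them cover counting error only, not the spread between mice.

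**Figure D1:**
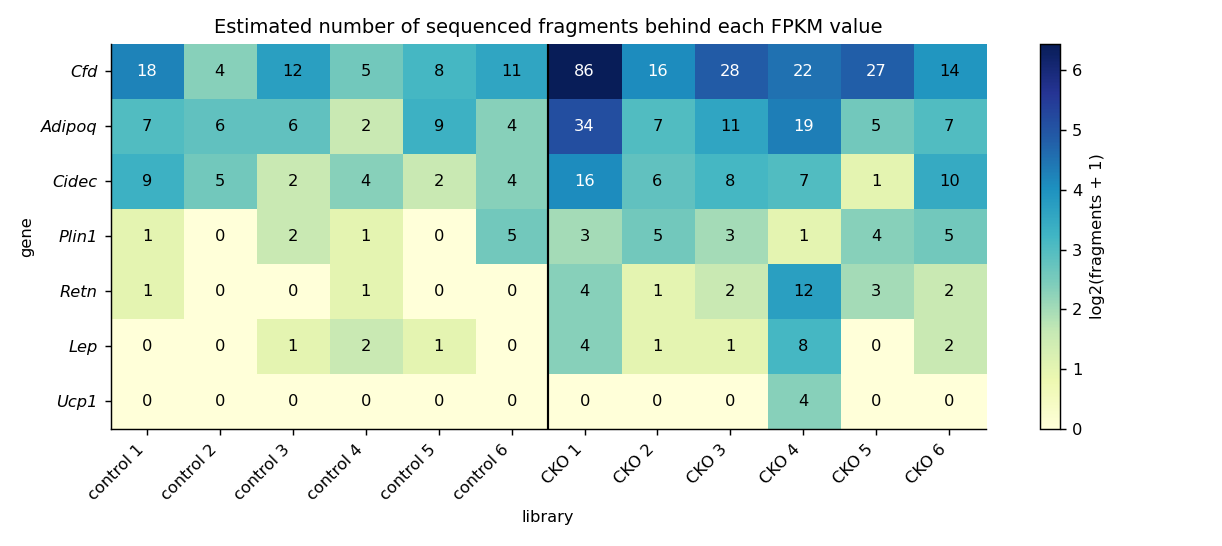
Estimated fragments behind the FPKM of 7 members (rows) in each of 12 libraries (columns, controls left of the line), coloured by log2(fragments + 1). CKO 1 held 86 Cfd and 34 Adipoq fragments, the highest numbers, and CKO 4 held 12 of the 24 CKO fragments of Retn and all 4 fragments of Ucp1.

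Of the tested members, 3 adipokine genes had the highest log2 differences between the groups. Cfd and Retn were each more than 1 log2 unit higher in the CKOs, Adipoq was higher by less, and Retn alone passed the adjusted threshold. Of the 7 tested members, 4 were higher in the CKOs at an unadjusted P below 0.05 (Adipoq, Cfd, Retn and Scd1) and none was lower, beside 18.1% higher and 1.76% lower over all genes. At the adjusted threshold 1 of the 7 was higher, Retn, beside 2.02% of all genes. Since Retn passed the filter through the CKOs, in which it was high, its call is given as a description. After median-ratio scaling 3 of the 7 were higher at an unadjusted P below 0.05 (Cfd, Retn and Scd1), beside 6.62%, and Retn remained past the adjusted threshold, beside 0.764% of all genes higher and 0.709% lower. As a description only, since Retn and others below the filter make these 7 a selected set, the median log2 difference of the 7 was 0.72, against 0.18 for all tested genes, and 0.54 against 0.01 after scaling.

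Cfd encodes adipsin, the complement factor D that fat cells secrete. It ranged in the controls from 0.357 to 1.80 FPKM with a median of 0.672, and in the CKOs from 1.19 to 4.87 FPKM with a median of 1.82. All 6 CKOs lay above the control median and 3 lay above the highest control, which was control 1, so the groups overlapped. The means were 0.819 ± 0.524 and 2.31 ± 1.38 FPKM (SD, n = 6 each). The log2 difference was 1.39 ± 0.36 (SE, 95% interval 0.63 to 2.15), with an unadjusted P of 0.00139 and a limma adjusted P of 0.0564. The exact permutation test on FPKM gave P = 0.0130 (two-sided, 924 assignments). CKO 1 held the highest value, and without it the log2 difference was 1.148 with a limma adjusted P of 0.125. Without control 1 the difference was 1.63 and passed, with a limma adjusted P of 0.00878.

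Adipoq encodes adiponectin, a hormone made almost only by adipocytes. Control values ran from 0.138 to 0.531 FPKM (median 0.379) and CKO values from 0.382 to 1.44 FPKM (median 0.561). Each CKO lay above the control median, while CKO 1, CKO 3 and CKO 4 lay above every control, and the other 3 CKOs fell within the control range. The means were 0.358 ± 0.164 and 0.719 ± 0.404 FPKM (SD, n = 6 each). Adipoq thus differed by 0.80 ± 0.32 on the log2 scale (SE, 95% interval 0.13 to 1.47), with an unadjusted P of 0.0226 and a limma adjusted P of 0.179, so it did not pass the adjusted threshold. The exact permutation P was 0.0498, it was 0.0866 after median-ratio scaling, and it lay between 0.0519 and 0.123 without each of 9 of the 12 libraries in turn. Without CKO 2, CKO 5 or CKO 6 in turn the exact permutation P lay between 0.0195 and 0.0390. Without CKO 1 and CKO 4, a choice made after the values were seen, the log2 difference was 0.43 with a limma adjusted P of 0.520.

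Retn encodes resistin, which in mice is an adipocyte hormone. It was listed at 0 in 4 controls, at 0.159 FPKM in control 1 and at 0.147 FPKM in control 4. The CKOs ranged from 0.147 to 1.23 FPKM with a median of 0.314, and 5 of the 6 lay above every control. CKO 2, with 1 fragment, stood level with the controls that had 1 fragment. The log2 difference was 1.80 ± 0.40 (SE, 95% interval 0.94 to 2.65, limma adjusted P = 0.0322), and the exact permutation P was 0.00433. Relative to depth, 24 fragments against 2 is a ratio of 11.1 with a counting interval of 2.76 to 97.0 (exact, 95%). Without CKO 4, which held 12 of the 24, the log2 difference was 1.499 with a limma adjusted P of 0.0467. Without control 2, control 3, control 5, control 6, CKO 1, CKO 3 or CKO 6 the adjusted P exceeded the threshold, with 0.0795 as the highest value. The limma adjusted P of Retn also exceeded it with no filter (0.0530), a pseudocount of 1 (0.0837) and quantile normalization (0.0639).

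Lep encodes leptin, the satiety hormone of white fat. It was listed at 0 in 3 controls and 1 CKO, and the highest values were 0.0524 FPKM in control 4 and 0.147 FPKM in CKO 4. The median was 0.0112 FPKM in the controls and 0.0372 FPKM in the CKOs, and the groups overlapped. The exact permutation P was 0.165. CKO 4 held 8 of the 16 CKO fragments and CKO 1 held 4, and the ratio relative to depth was 3.70 with a counting interval of 1.195 to 15.2.

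**Figure D2:**
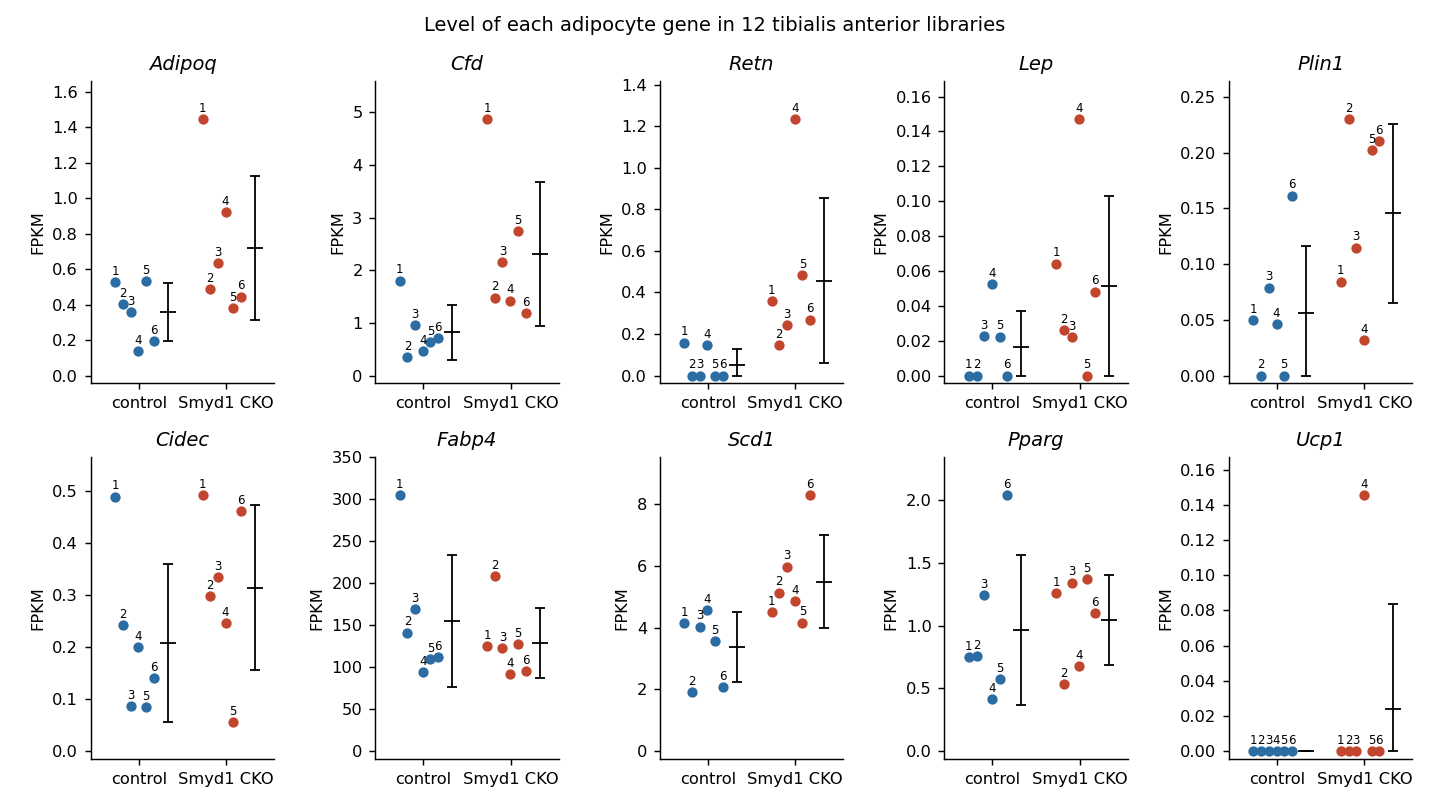
FPKM of each member (y axis, linear, a separate scale per gene) in 6 control and 6 Smyd1 CKO libraries, numbered by replicate; the black bar is the mean and its whiskers are the SD, cut at 0. Retn is at 0 in 4 controls and in no CKO, Fabp4 is highest in control 1 at 305 FPKM, and Ucp1 is above 0 only in CKO 4.

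The lipid droplet members were Plin1, which missed the filter and was not tested, and Cidec. Plin1 encodes perilipin, the coat protein of the adipocyte droplet that controls access of lipases. It ranged from 0 to 0.161 FPKM in the controls (median 0.0478) and from 0.0321 to 0.230 FPKM in the CKOs (median 0.158). Of the 6 CKOs, 5 lay above the control median and 3 above every control. The means were 0.0560 ± 0.0601 and 0.146 ± 0.0802 FPKM (SD, n = 6 each) and the exact permutation P was 0.0606. The mouse order differed from that of Adipoq: CKO 1 had 3 Plin1 fragments and CKO 4 had 1, whereas CKO 2 and CKO 6 had 5 each. Cidec encodes a protein that lets droplets fuse into a large one. It ranged from 0.0854 to 0.489 FPKM in the controls (median 0.171) and from 0.0552 to 0.492 FPKM in the CKOs (median 0.316). Control 1 and CKO 1 had nearly the same highest value and CKO 5 had the lowest of all 12. The log2 difference of Cidec was 0.44 ± 0.35 (SE, 95% interval -0.31 to 1.18, limma adjusted P = 0.493), a range that includes both no difference and a higher level in the CKOs.

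Fabp4 and Scd1 handle fatty acids, and neither is restricted to fat cells. Fabp4, a fatty acid carrier, is also known from capillary endothelium. It ranged from 93.7 to 305 FPKM in the controls (median 126) and from 92.2 to 209 FPKM in the CKOs (median 124). The groups overlapped almost wholly, and 2 of the 6 CKOs lay above the control median. For Fabp4 the log2 difference was -0.20 ± 0.26 (SE, 95% interval -0.75 to 0.35, limma adjusted P = 0.686). Without control 1, which held the highest value, the difference was 0.02. The endothelial genes Pecam1, Cdh5 and Gpihbp1 averaged 9.62, 9.17 and 6.95 FPKM in the controls and 10.5, 10.7 and 7.48 FPKM in the CKOs, and none of 7 endothelial genes tested passed an unadjusted P of 0.05. Of those 7, Kdr (5.03 and 4.71 FPKM) and Emcn (3.11 and 2.95 FPKM) averaged lower in the CKOs, and the log2 difference of 5 was above 0. The sum of the 7 ran from 37.5 to 47.5 FPKM in the controls (median 42.8). In the CKOs it ran from 37.9 to 61.2 FPKM (median 41.0). Its highest library, CKO 2, was the CKO with the highest Fabp4. The part of the endothelial genes in the Fabp4 level was not tested beyond the correlation given below.

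Scd1 encodes the stearoyl-CoA desaturase that makes monounsaturated fatty acids in fat, liver and muscle. It ranged from 1.91 to 4.57 FPKM in the controls (median 3.80) and from 4.16 to 8.28 FPKM in the CKOs (median 4.99). All 6 CKOs lay above the control median and 4 lay above every control. The log2 difference was 0.72 ± 0.23 (SE, 95% interval 0.24 to 1.199), with an unadjusted P of 0.00607, a limma adjusted P of 0.107 and an exact permutation P of 0.00866. After median-ratio scaling it was 0.54 with a limma adjusted P of 0.239. The highest value was that of CKO 6, not of CKO 1 or CKO 4.

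Pparg encodes the nuclear receptor that drives fat cell formation, and Ucp1 the uncoupling protein by which brown and beige fat make heat. Pparg ranged from 0.413 to 2.04 FPKM in the controls (median 0.751) and from 0.532 to 1.37 FPKM in the CKOs (median 1.18), and the highest value of all was in control 6. For Pparg the log2 difference was 0.20 ± 0.32 (SE, 95% interval -0.47 to 0.88, limma adjusted P = 0.743), near the median of all genes, and 0.03 after median-ratio scaling. In the annotation the gene model Gm44079 overlaps Pparg, so reads may be shared. Ucp1 was listed at 0 in all 6 controls and in 5 CKOs, and at 0.146 FPKM in CKO 4, about 4 fragments. Over the 6 controls together, 0 fragments allow up to 0.0233 FPKM (3 fragments over the group, counting error only).

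**Figure D3:**
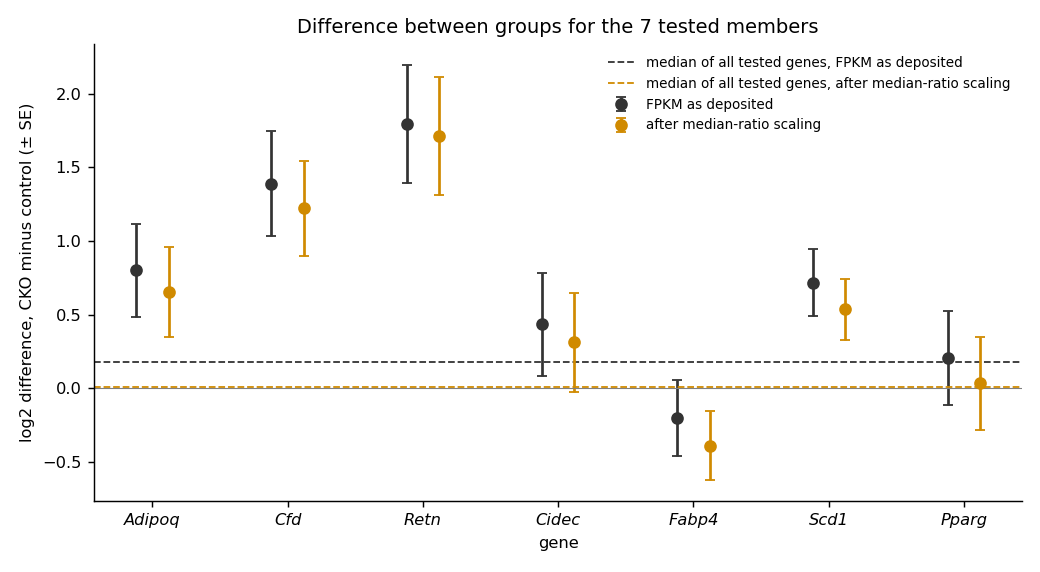
Log2 difference, CKO minus control, with its SE (y axis) for the 7 tested members, from FPKM as deposited (black) and after median-ratio scaling (orange); dashed lines are the medians of all tested genes, 0.18 and 0.01. Cfd and Retn stood more than 1 log2 unit above 0 on both scales, Fabp4 lay below 0, and Pparg lay near the medians.

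The mice differed in fat gene level, but no mouse ranked first throughout. CKO 1 had the highest Adipoq, Cfd and Cidec, and CKO 4 the highest Lep, Retn and Ucp1. Each was first or second for 4 of the 10 members. Control 1 was the highest control for Cfd, Retn and Cidec and the highest library for Fabp4, and its mean rank over the 10 members (5.95, where 1 is the highest level) matched that of CKO 5. The other 5 controls had mean ranks from 7.55 to 9, and the other 5 CKOs from 3.70 to 5.20. Across the 12 libraries the highest Adipoq value was 10.4 times the lowest, the highest Cfd 13.7 times, Cidec 8.91 times, Pparg 4.93 times, Scd1 4.34 times and Fabp4 3.31 times. CKO 1, CKO 4 and control 6 were also the most deeply sequenced libraries (19100000, 16700000 and 16600000 fragments estimated). Control 6 had 4 Adipoq and 11 Cfd fragments and none of Retn or Lep. It also had 5 Plin1 fragments, the most of any control, and the highest Pparg of the 12 libraries (2.04 FPKM). The part of depth in the ranks was not tested.

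Members were then compared with Adipoq across the 12 mice on the log2(FPKM + 0.1) scale, in a family of 10 relations that also held Fabp4 against Cdh5. Both groups were pooled and permuted together, so r and P over the 12 mice mix the group difference with the spread between mice. Cfd followed Adipoq most closely, with Pearson r = 0.70 (permutation P = 0.01155, adjusted 0.115) and Spearman rho = 0.55 (permutation P = 0.0681, adjusted 0.276). Without control 4 and CKO 1, the 2 mice farthest from the median of Adipoq, r was 0.35, so the relation rested on those mice. Within the 6 controls r was 0.42 and within the 6 CKOs 0.55. For Retn r was 0.52 (permutation P = 0.0800, adjusted 0.333), with rho 0.52 (permutation P = 0.0829, adjusted 0.276). Within groups it was -0.18 in the controls and 0.35 in the CKOs, and without control 4 and CKO 1 r was 0.66. For Cidec r was 0.47 and rho 0.57, and for Lep r was 0.46 and rho 0.35 (Pearson permutation P = 0.124 and 0.133, Spearman 0.0560 and 0.255). Without control 4 and CKO 1, r was 0.37 for Cidec and 0.71 for Lep. Within the controls r was 0.16 for Cidec and -0.47 for Lep, and within the CKOs 0.51 and 0.65. On median-ratio scaled values r over the 12 mice was 0.61 for Cfd, 0.43 for Retn, 0.37 for Cidec and 0.41 for Lep.

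For Ucp1 r was 0.37, set by its single library above 0, and rho was 0.39 (permutation P = 0.331 and 0.333). For Scd1 r was 0.32 and rho 0.34 (permutation P = 0.310 and 0.286). Without control 4 and CKO 1, r was 0.65 for Ucp1 and 0.54 for Scd1. Within the controls r was 0.04 for Scd1, and within the CKOs -0.32 for Scd1 and 0.34 for Ucp1. Fabp4 had r = 0.08 and rho = -0.04 (permutation P = 0.805 and 0.903), with 0.62 within the controls, -0.23 within the CKOs and -0.08 without control 4 and CKO 1. Pparg had r = 0.06 and rho = -0.06 (permutation P = 0.846 and 0.851), with -0.11 within the controls, 0.03 within the CKOs and -0.63 without control 4 and CKO 1. For Plin1 r was -0.12 and rho -0.13 (permutation P = 0.719 and 0.676), with -0.55 within the controls, -0.80 within the CKOs and -0.35 without control 4 and CKO 1, although both genes are known from the same cell. The values of r thus moved widely with those 2 mice, in both directions. Fabp4 against the endothelial cadherin Cdh5 gave r = 0.12 and rho = 0.36 (permutation P = 0.688 and 0.246), with -0.37 within the controls and 0.96 within the CKOs, and 0.54 without control 1 and CKO 2. No relation over the 12 mice passed after adjustment over the 10. On median-ratio scaled values r with Adipoq was 0.40 for Ucp1, 0.12 for Scd1, -0.10 for Fabp4, -0.08 for Pparg and -0.27 for Plin1. Fabp4 against Cdh5 then gave r = 0.12.

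**Figure D4:**
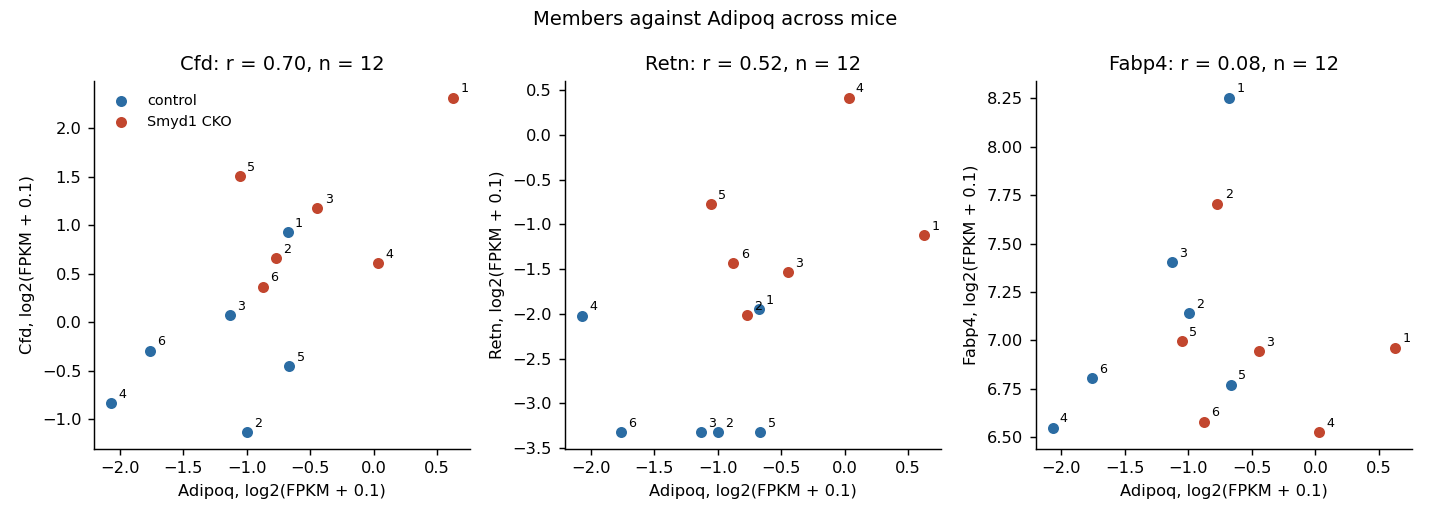
Cfd, Retn and Fabp4 (y axes) against Adipoq (x axis), all as log2(FPKM + 0.1), one point per mouse, numbered by replicate and coloured by group. CKO 1 and control 4 mark the ends of the Cfd relation (r = 0.70), and the Fabp4 points show no slope (r = 0.08).

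The genes whose levels were most like Adipoq over the 12 libraries were Eri1 (r = 0.93), Rpl35a (0.91), Pomgnt2, Lancl1, Cped1, Ing5, Fbxl20, Srpr, Cadm3 and Hdac11 (0.85). None of these 10 is a member or in a list of fat genes used here. Of the 12694 other tested genes, Cfd ranked 341st by this measure, Retn 2209th, Cidec 3057th, Scd1 5496th, Fabp4 9057th and Pparg 9235th.

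Other fat genes were taken from 8 lists that together held 116 tested genes besides the members. Of the 116, 19 were higher and 4 lower at an unadjusted P below 0.05, beside 18.1% and 1.76% of all genes, and 1 was higher and 1 lower at the adjusted threshold. After median-ratio scaling 11 were higher and 13 lower at an unadjusted P below 0.05, beside 6.62% and 7.44% of all genes, so the balance of directions turned with the scaling, and 1 was higher and 3 lower at the adjusted threshold. The unscaled median log2 difference was 0.17, against 0.18 for all genes. In the list of adipogenic transcription factors Klf5, a Krüppel-like factor active early in fat cell formation and also in other cell types, rose. Klf5 ranged from 0.346 to 0.590 FPKM in the controls and from 0.654 to 1.45 FPKM in the CKOs. Its log2 difference was 1.10 ± 0.21 (SE, limma adjusted P = 0.0128), and 0.93 after median-ratio scaling (limma adjusted P = 0.0265). Without CKO 1 and CKO 4 the log2 difference of Klf5 was 1.02 and its adjusted P 0.0910. In the list of fatty acid and triglyceride synthesis Me1, the malic enzyme that supplies NADPH, fell. Me1 ranged from 7.70 to 13.0 FPKM in the controls and from 3.73 to 8.31 FPKM in the CKOs, with a log2 difference of -0.80 ± 0.20 (SE, limma adjusted P = 0.0455). That call was lost when any of 9 libraries was left out, with adjusted P up to 0.118.

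The counts by list that follow are unscaled. Over all genes 18.1% were higher and 1.76% lower at an unadjusted P below 0.05. Of 18 tested other adipocyte genes, 3 were higher at an unadjusted P (Thrsp, Sult1a1 and Itih5, named after their values were seen) and 1 was lower. That was Car3, a carbonic anhydrase abundant in fat and in slow muscle fibers, at 451 ± 101 FPKM in the controls and 235 ± 128 FPKM in the CKOs (SD, n = 6 each, log2 difference -1.08 ± 0.29 SE, limma adjusted P = 0.0634). Gpd1 (77.2 and 70.4 FPKM) and Plin4 (17.95 and 19.7 FPKM) were the next most abundant of that list and passed no threshold. Of 9 tested brown and beige fat genes none passed an unadjusted P in limma, and the most abundant, the muscle-type cytochrome oxidase subunits Cox7a1 and Cox8b, averaged 203 and 134 FPKM in the controls and 202 and 138 FPKM in the CKOs. Ppargc1a, a coactivator of mitochondrial genes, averaged 11.9 and 7.74 FPKM. Lhx8 and Slc27a2 were listed at 0 in every library.

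Genes for adipokine reception, lipolysis, synthesis, uptake and precursor cells gave the following unscaled counts at an unadjusted P below 0.05. They stand beside 18.1% higher and 1.76% lower over all genes. Among 14 adipokines and receptors 3 were higher at an unadjusted P and none was lower, while Adipor1 (33.1 and 36.1 FPKM) and Adipor2 (14.7 and 16.8 FPKM), which bind adiponectin, passed no threshold, nor did Nampt (23.2 and 23.9 FPKM). Among 17 lipid droplet and lipolysis genes 2 were higher and none lower, and the most abundant, Fitm1, Plin4 and G0s2, passed no threshold. Among 20 synthesis genes 6 were higher and 2 lower. The higher ones were Fasn, Gpam, Agpat2, Lpin2, Dgat2 and Thrsp, and the lower ones Me1 and Lpin1, named after their values were seen. Among 12 uptake genes 2 were higher and none lower, and Cd36 (68.4 and 71.3 FPKM), Slc2a4 (63.5 and 58.9 FPKM) and Lpl (40.2 and 44.6 FPKM), all used by muscle fibers too, passed no threshold. Among 14 adipocyte progenitor genes 2 were higher and none lower, and the 3 most abundant, Cd24a, Cd34 and Dpt, averaged 50.9, 13.0 and 12.5 FPKM in the controls and 51.7, 15.5 and 14.04 FPKM in the CKOs. The median of this list was 0.32.

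**Figure D5:**
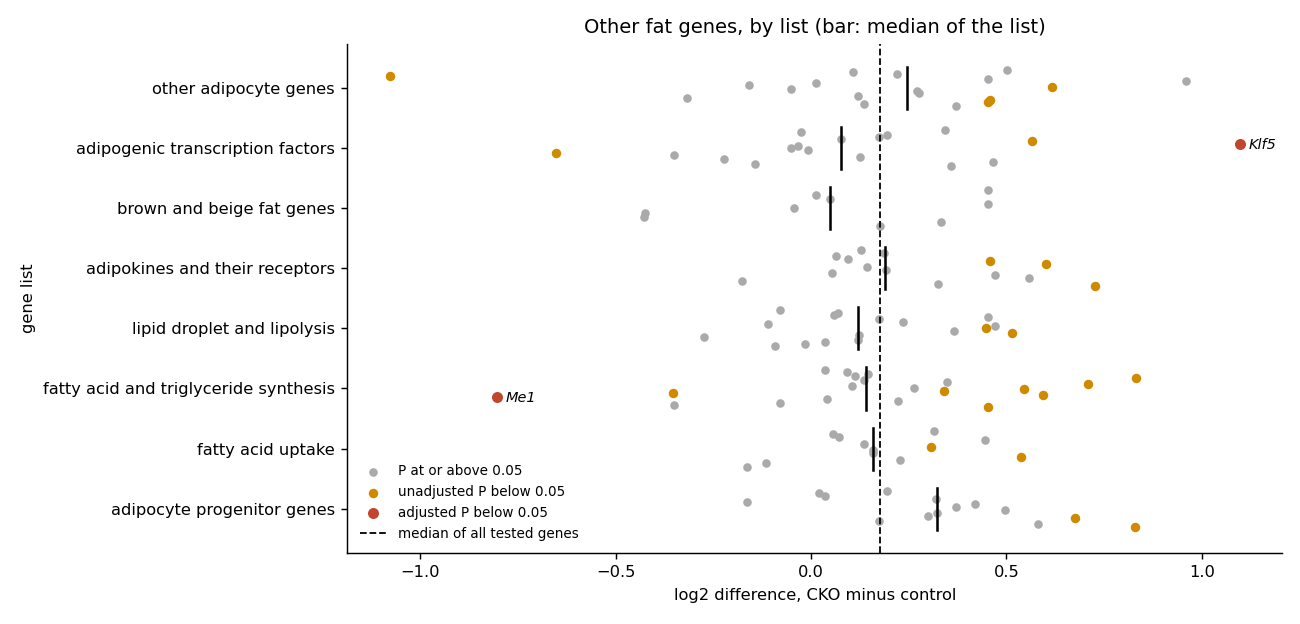
Log2 difference, CKO minus control (x axis), of every tested gene in 8 lists of other fat genes (y axis), coloured by the threshold passed; the black bar is the median of the list and the dashed line the median of all tested genes, 0.18. Klf5 at 1.10 and Me1 at -0.80 are the 2 genes past the adjusted threshold, and the list medians lie between 0.05 and 0.32.

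Markers of other tissue that a dissected muscle could carry were set beside these values. The 4 macrophage genes, led by Mrc1, Csf1r and Emr1, summed to between 4.46 and 14.4 FPKM in the controls, with control 1 highest, and between 4.50 and 10.5 FPKM in the CKOs. The 3 tendon genes Fmod, Tnmd and Scx summed to between 7.59 and 20.8 FPKM in the controls and between 4.45 and 13.5 FPKM in the CKOs. No macrophage or tendon gene passed an unadjusted P. The keratin genes of skin, Krt5, Krt14 and Krt10, summed to at most 0.225 FPKM in any library. The part of tissue carried along with the muscle in the Cfd, Retn and Adipoq values was not tested.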

How the data were processed

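RNA of the tibialis anterior of 12 mice was sequenced by the authors after ribosomal RNA depletion. The submitters' processing notes name TopHat2 2.0.10, Cufflinks 2.1.1 and build mm9, and the authors aligned with at most 2 mismatches, dropped reads mapping to several places and deposited FPKM values, one per gene symbol. Counts were not analysed here. Each file had 23950 rows. In 27 rows a date stood in place of the symbol, and without those rows 23923 genes were read. The groups came from the labels, with no column left unmapped. Nothing in the labels pairs mice across groups.

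Differences were fitted with limma 3.58.1 in R 4.3.3 (trend, no block) on log2(FPKM + 0.1) of all 12 libraries, so fold changes of low genes are understated. The 12695 genes with 0.1 FPKM or more in 6 or more libraries were tested, and P was adjusted over them (Benjamini-Hochberg). SE, intervals and adjusted P are those of limma. Single members were also compared by an exact two-sided permutation test of mean FPKM over 924 assignments, and correlations by 100000 permutations. The fits and tests were tested on simulated data. Median-ratio scaling divided each library by its median ratio to the geometric mean of genes above 0 in every library.

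The worth of 1 fragment was taken from the lowest step of FPKM times length in 2187 genes with 1 transcript over 1.5 kb (GENCODE M21, GRCm38). Of 377 such genes with few fragments, 340 (90.2%) lay within 0.1 of whole numbers in every library, with the lowest value above 0 taken as 1 to 4 fragments. Promoters are from RefSeq. The files hold no coordinates, and positions given are of GRCm38, not of mm9.

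Named were all members, list genes past the adjusted threshold or else the 3 with the highest mean FPKM, and the 10 genes most correlated with Adipoq. Members and lists were chosen with earlier results of these data known. Alternatives were a pseudocount of 1, other filters, scaling and quantile normalization, a replicate block, no trend, sample weights and each library left out. The fit without CKO 1 and CKO 4 was added after the values were seen. The result of 1 further marker list is not reported here.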

Additional observations from a re-analysis of the deposited data

Results flagged for a closer look

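Of 18 groups of 6 values (1 member in 1 genotype, with at least 2 values above 0), 3 held a library set apart from the other 5 by Dixon's ratio (the gap to the nearest value over the range, above its critical value at 95%). Chance gives about 1 in 20 for normally distributed values. The ratio was taken on untransformed FPKM, some of them resting on few fragments, so 3 of 18 cannot be judged against that rate. Fabp4 was 305 FPKM in control 1, with the next control at 169 FPKM. Fabp4 was also set apart in CKO 2 at 209 FPKM, with the next CKO at 127 FPKM. Retn was 1.23 FPKM in CKO 4, with the next CKO at 0.485 FPKM. Ucp1 was 0.146 FPKM in CKO 4 and 0 in the other 5 CKOs, where the ratio is 1 by construction and tests nothing.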

How the results depend on the processing

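Without a filter, with a pseudocount of 1 or with quantile normalization, 0 members were higher at the adjusted threshold instead of 1. It was 0 also without CKO 1 and CKO 4, 3 with sample weights and from 0 to 3 when a library was left out (3 without control 1). At an unadjusted P it was 2 of the 4 members tested with the 1 FPKM filter, where Cfd passed the adjusted threshold (0.0457), and from 3 to 5 without single libraries. Cfd reached 1 FPKM in every CKO but among the controls only in control 1. It thus passed that filter through the group in which it was high, and this call is given as a description. No member was lower at either threshold under any alternative. Fabp4 turned from -0.20 to 0.018 without control 1 and ran from -0.35 to 0.018 without single libraries (mean FPKM difference from -42.3 to 3.64), and Pparg to -0.018 under quantile normalization (mean FPKM difference -0.0636 with median-ratio scaling and from -0.0264, without control 4, to 0.299 without single libraries). The cause was not tested.

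Over all genes, unadjusted calls higher were 841 and lower 944 with median-ratio scaling, 810 and 837 with quantile normalization, and 3704 higher with sample weights, with 1738 to 3428 higher and 196 to 320 lower without single libraries. Adjusted calls higher were 97 with median-ratio scaling, 101 with quantile normalization, 1400 with sample weights, 170 with no filter and 41 without CKO 1 and CKO 4, from 84 to 1067 without single libraries; adjusted calls lower were 90, 68, 115 and, without CKO 1 and CKO 4, 12, with 18 to 69 without single libraries. The 1067 and 69 came without control 1.

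Of the genes in the 8 lists, unadjusted calls higher were 11, 9 and 32 with median-ratio scaling, quantile normalization and sample weights, from 17 to 33 without single libraries, and lower 13 and 10 with the first of these and with quantile normalization. The 33 came without control 1. Adjusted calls higher were 14 with sample weights, 0 without CKO 1 and CKO 4, and from 1 to 15 without single libraries. Adjusted calls lower were 3 with median-ratio scaling, 2 with quantile normalization, 4 with sample weights, and 0 with no filter, with no trend or without CKO 1 and CKO 4, and from 0 to 2 without single libraries.

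Replicate numbers are shared by the groups without a stated pairing. Over all tested genes, the deviations of same-numbered libraries from their group means correlated at -0.09 to 0.16 (mean 0.04). For libraries of the 2 groups with unlike numbers the mean was -0.009. These correlations cannot tell whether the mice were paired. With the replicate number as a block, 2 members (Cfd and Retn) and 2 list genes were higher and 2 list genes lower at the adjusted threshold. The limma adjusted P was then 0.00497 for Cfd and 0.0108 for Retn.

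Depth limits Retn, Lep, Plin1 and Ucp1 most, at 26, 20, 30 and 4 fragments in all.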
